A study of Mus musculus with 11 samples.

Results

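The genes described here encode 8 receptors through which monocytes and blood progenitors read growth factors: Csf1r, Csf2ra, Csf2rb, Csf2rb2, Il3ra, Flt3, Kit and Csf3r. They were chosen by gene symbol, 8 of the 21860 genes in the table, and all 8 passed the filter on low values that kept 13095 genes for testing. RNA was sequenced in bulk from 11 samples of CD11b-low EpCAM+ cells, sorted on day 6 from cultures of bone marrow monocytes of C57BL/6 mice, with both sexes used for cultures. EpCAM, one of the sorting markers, is a surface protein found on Langerhans cells, which are phagocytes of the epidermis. Every culture received GM-CSF (20 ng/ml). The Jag1 only sample received no other cytokine. The remaining 10 samples also received TGFβ (5 ng/ml) and IL-34 (8 µg/ml), either alone (TGFβ/IL-34, 2 samples), with FICZ (TGFβ/IL-34/FICZ, 2 samples), with Jag1 (TGFβ/IL-34/Jag1, 3 samples) or with both (TGFβ/IL-34/Jag1/FICZ, 3 samples). Jag1, a Notch ligand, was displayed by OP9-Jag1 cells, a bone marrow stromal line, so its effect and that of stromal contact cannot be told apart. FICZ is a ligand of Ahr, the aryl hydrocarbon receptor, described as an agonist in the study and as an antagonist in the deposited design text, and its dose is not given in the sources used here.

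Growth factor receptors of this kind set which signals keep a myeloid cell alive and which lineage it follows. Csf1r, Flt3 and Kit are receptor tyrosine kinases of one family: Csf1r binds M-CSF and IL-34 and is a hallmark of monocytes, macrophages and Langerhans cells, Flt3 binds FLT3 ligand and marks multipotent progenitors and dendritic cells, and Kit binds stem cell factor and marks stem cells and mast cells. The GM-CSF and IL-3 receptors pair a ligand-specific α chain (Csf2ra, Il3ra) with a shared β chain (Csf2rb) that recruits Jak2 and Stat5, and mice carry a second β chain, Csf2rb2, that serves IL-3 alone. Csf3r binds G-CSF and is the receptor of the neutrophil lineage.

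Normalised counts summed to 21310445 to 27845052 per sample, at an estimated 0.895 to 1.15 normalised counts per read in genes with a single transcript. The labels call every sample a co-culture with OP9 cells, but stromal transcripts were seen mainly where Jag1 was named. The 9 stroma genes other than Thy1 summed to 387 to 4552 normalised counts in the 7 Jag1 samples and to 1.82 to 23.3 in the other 4. Thy1 was left out because it stood at 789.5 to 12178 in those 4 samples, a choice made after its values were seen. The Langerhans marker Epcam was present in all samples (657 normalised counts in Jag1 only, 3952 to 14377 elsewhere), whereas Cd207 reached 1366 to 1784 only in TGFβ/IL-34/Jag1 and was at 6.21 to 157 in the others. The pair of TGFβ/IL-34/FICZ libraries stood apart from each other: replicates 1 and 2 differed 2.89-fold in Il3ra, 2.35-fold in Csf2ra, 2.32-fold in Csf2rb2 and 1.95-fold in Csf2rb, where the other groups spread at most 1.43-, 1.48-, 1.17- and 1.12-fold. The spread of Kit, Csf1r, Csf3r and Flt3 was wider in TGFβ/IL-34/Jag1, at 2.44-, 2.38-, 2.11- and 1.91-fold. TGFβ/IL-34/FICZ replicates 1 and 2 also came from different experiments and flow cells. The only other library on the flow cell of replicate 1 was TGFβ/IL-34/Jag1/FICZ replicate 1. Replicate, experiment and flow cell cannot be told apart in this pair, nor FICZ fully from flow cell. The main results that rest on the TGFβ/IL-34/FICZ pair are also given without 1 of its libraries. The labels do not say whether replicates came from separate animals, so p-values measure the spread between these samples. In bulk RNA, fewer cells of a type and less RNA per cell cannot be told apart.

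The GM-CSF receptor β chain dominated this receptor set in every sample. Levels of different genes are compared as normalised counts per kb of the canonical transcript. Csf2rb took 45.7% to 59.5% of the summed level of the 8 genes. By normalised count, without adjustment for transcript length, it ranked between 10th and 40th in its library. Csf2rb2 followed with 21.3% to 29.7% of the summed level. Csf2ra took 4.31% to 15.2% and Csf1r 1.71% to 15.8%, the widest range of the 8 in percentage points. Flt3 (0.438% to 3.60%), Il3ra (0.656% to 5.18%) and Kit (0.410% to 1.34%) were minor, and Csf3r never exceeded 0.294%. The β chains were thus both measured above their α chains in each of the 11 samples.

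**Figure D1:**
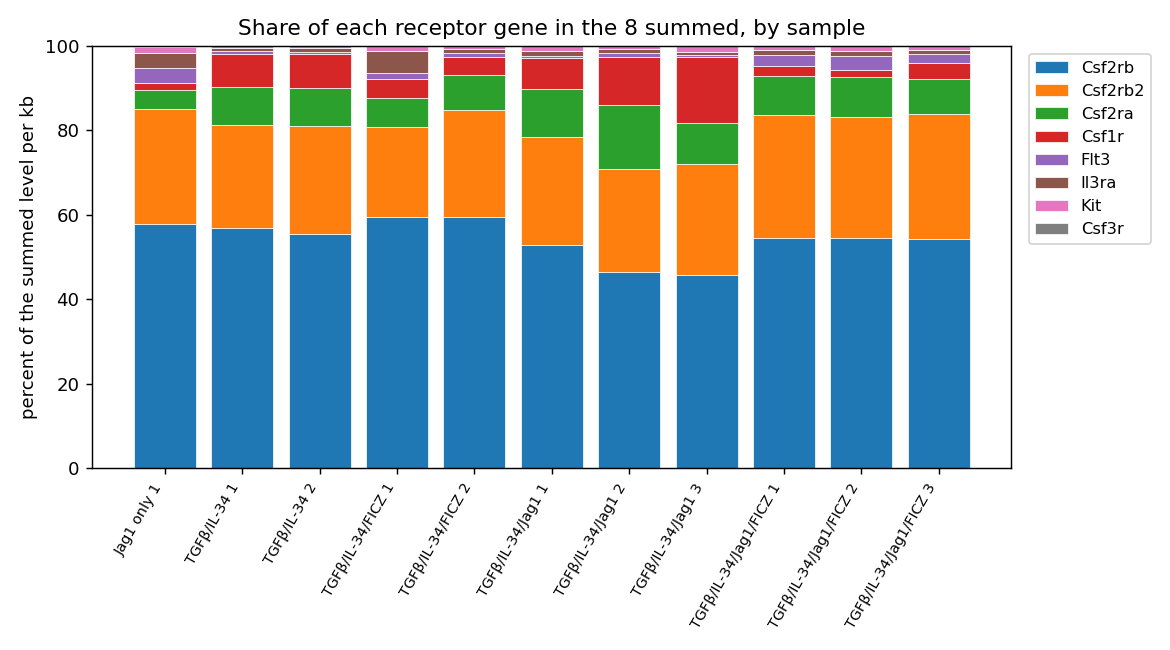
Stacked bars give, for each of the 11 samples (x axis, named by group and replicate), the percent of the summed level per kb of the 8 receptor genes taken by each gene (y axis). Csf2rb fills 45.7% to 59.5% of every bar, and the Csf1r segment is widest in TGFβ/IL-34/Jag1 replicate 3 (15.8%) and narrowest in Jag1 only (1.71%).

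Csf1r, the receptor for the IL-34 added to 10 of the cultures, was high with TGFβ and IL-34 and lower wherever FICZ was added. Its gene lies at chr18:61229714-61266535 (GRCm39, plus strand) and overlaps Hmgxb3 on the opposite strand by 2189 bases, where reads of both genes may mix. The normalised counts were 22668 and 23145 in TGFβ/IL-34 and 13200, 21274 and 31394 in TGFβ/IL-34/Jag1. With FICZ they were 6680 and 11954 in TGFβ/IL-34/FICZ and 5106, 3901 and 8828 in TGFβ/IL-34/Jag1/FICZ. The Jag1 only sample held 2001. All 5 FICZ samples lay below all 5 samples that had TGFβ and IL-34 without FICZ, and the Jag1 only sample lay below all 10.

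In the Jag1 cultures FICZ lowered Csf1r from 21956 ± 9116 to 5945 ± 2568 (SD, n = 3 each), a 3.69-fold difference of means and a log2 fold change of -1.88 (SE 0.370; limma, adjusted p = 0.00583). Of the 8 receptor genes 2 passed in this comparison, Csf1r and Flt3, where 17.7% of all genes tested passed. The fall was seen within each of the 3 experiments in which both cultures were run, at 2.58-, 5.45- and 3.56-fold. Without Jag1 the means were 22906 ± 338 and 9317 ± 3729 (SD, n = 2 each), and the log2 fold change of -1.36 (SE 0.454) did not pass (limma, adjusted p = 0.285). By the sample descriptions, only TGFβ/IL-34 replicate 1 and TGFβ/IL-34/FICZ replicate 2 of these groups share an experiment. FICZ and experiment can thus not be fully told apart in this comparison or in the difference between FICZ effects. Leaving out TGFβ/IL-34/FICZ replicate 2 gave -1.78 (limma, adjusted p = 0.0196) and leaving out replicate 1 gave -0.94 (limma, adjusted p = 0.822), and each of these fits rests on 1 library in that group, taken to vary like the others. The difference between the FICZ effects with and without Jag1 was -0.52 (95% confidence interval -1.83 to 0.78; limma, adjusted p = 0.602), an interval that holds 0 and differences of more than 1 in size. It was -0.94 without TGFβ/IL-34/FICZ replicate 1 and -0.10 without replicate 2 (limma, adjusted p = 0.525 and 0.902). Jag1 without FICZ gave Csf1r means of 21956 with and 22906 without Jag1, and a log2 fold change of -0.15 (95% confidence interval -1.07 to 0.77; limma, adjusted p = 0.913).

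TGFβ and IL-34 went with more Csf1r. Against the single Jag1 only sample, TGFβ/IL-34/Jag1 was 11-fold higher in its mean, with a log2 fold change of 3.37 (SE 0.524; limma, adjusted p = 0.00254). Here 3 of the 8 genes passed, Csf1r, Csf2ra and Flt3, where 16.9% of all genes passed. The fit assumes that the lone sample varies as the replicated groups do, and a second Jag1 only sample was not there to check this. The lone sample shares its experiment only with TGFβ/IL-34/Jag1 replicate 1, so cytokines and experiment cannot be fully told apart here. In that experiment Csf1r was at 13200 in TGFβ/IL-34/Jag1, the lowest of its group, and at 2001 in Jag1 only.

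**Figure D2:**
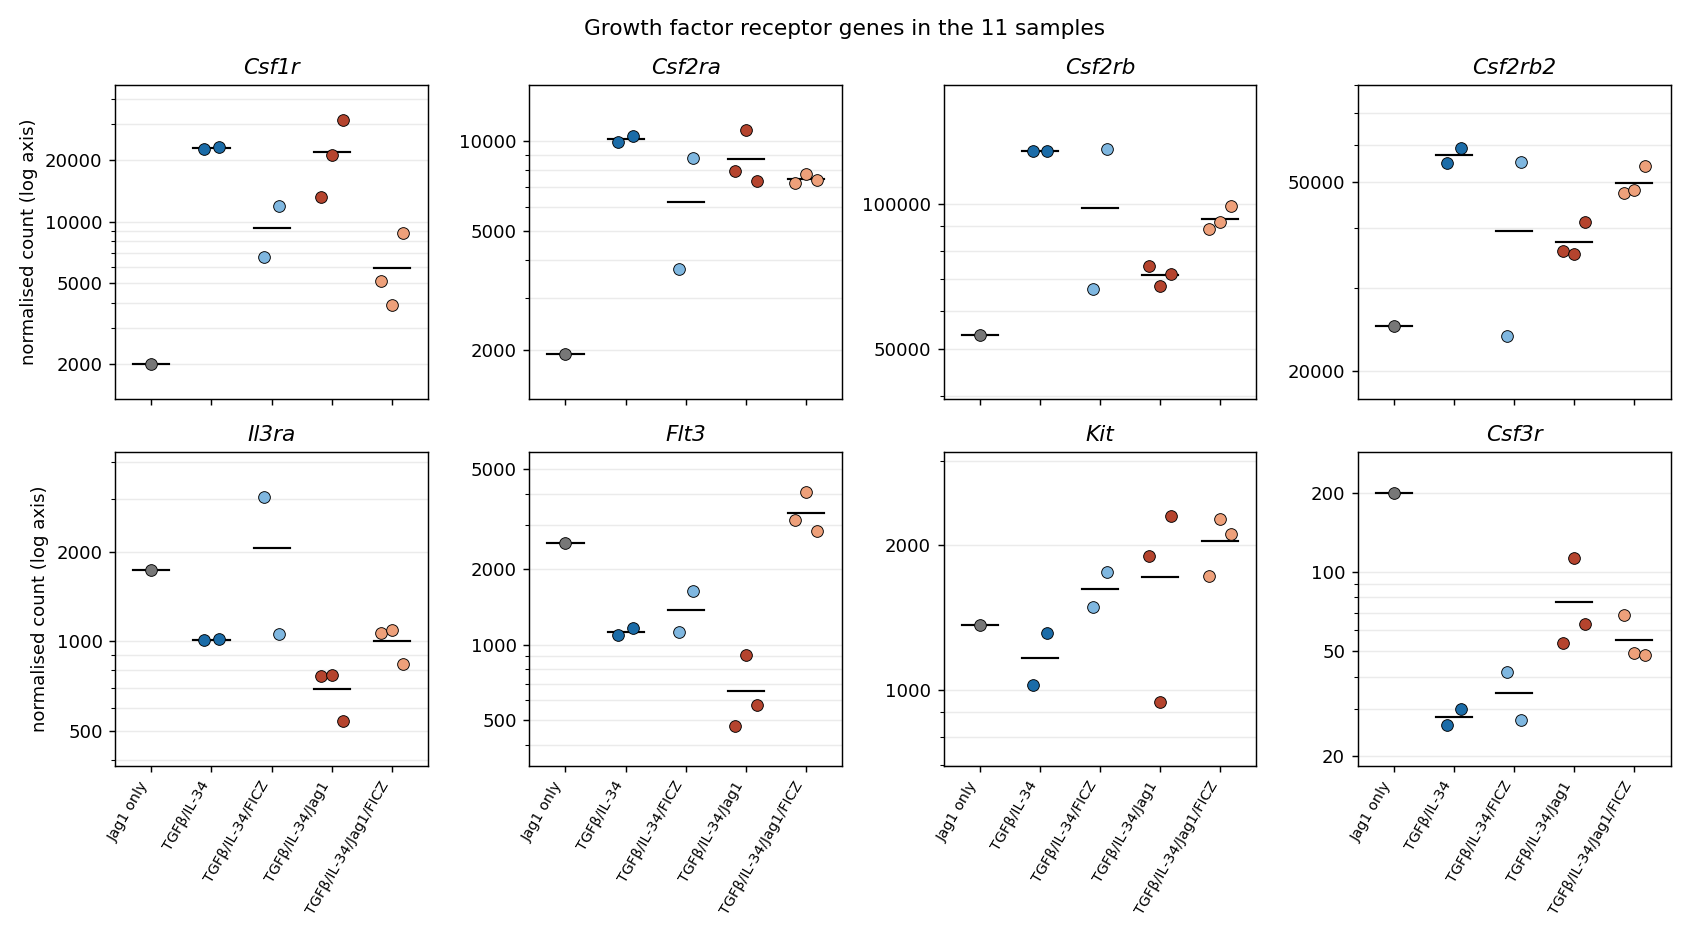
Each panel shows 1 receptor gene, with the normalised count on a log axis (y) for each of the 11 samples in its group (x). Points are samples and the black line is the group mean. Csf1r sits at 3901 to 11954 in the 5 FICZ samples against 13200 to 31394 in the other 5 with TGFβ and IL-34, and Flt3 is highest in TGFβ/IL-34/Jag1/FICZ (2829 to 4057).

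Flt3, the FLT3 ligand receptor of progenitors and dendritic cells, moved the other way from Csf1r and was the receptor gene with the lowest p-value in the FICZ effect with Jag1. It lies at chr5:147267551-147337483 (GRCm39, minus strand). The 250 bases before its RefSeq start (chr5:147400490-147400739, GRCm38.p6, minus strand) are shown because FICZ is a ligand of Ahr, which binds DNA at sites with the core GCGTG. Capitals would mark this core, the RBPJ core TGGGAA of Notch signalling or the PU.1 core GAGGAAGT.
Flt3 upstream: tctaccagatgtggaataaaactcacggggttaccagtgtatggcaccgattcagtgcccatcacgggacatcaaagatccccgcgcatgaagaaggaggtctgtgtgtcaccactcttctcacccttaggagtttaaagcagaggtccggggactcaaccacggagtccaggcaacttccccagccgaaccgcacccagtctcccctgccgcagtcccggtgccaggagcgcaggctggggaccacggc
None of the 3 motifs was found on either strand of this window or of the 50 bases after the start, which says only that these letters are absent there. None of the motifs contains another. Over 32851 RefSeq promoter windows of the same length, 32.4% held GCGTG, 25.6% TGGGAA and 3.20% GAGGAAGT. Among the 5 receptor genes with a single window, GCGTG was found in Il3ra at positions -247 and -178, TGGGAA in Csf2ra at -30 on the opposite strand, and GAGGAAGT in Csf2rb2 at 27 on the opposite strand.

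Flt3 stood at 475, 909 and 577 normalised counts in TGFβ/IL-34/Jag1 and at 3142, 4057 and 2829 in TGFβ/IL-34/Jag1/FICZ. It stood at 1094 and 1160 in TGFβ/IL-34, at 1127 and 1633 in TGFβ/IL-34/FICZ, and at 2547 in Jag1 only. The TGFβ/IL-34/Jag1 samples were the lowest 3 of the 11 and the TGFβ/IL-34/Jag1/FICZ samples the highest 3, without overlap with any other group. Of the 8 genes 5 did not overlap between these groups, where 45.1% of all genes did not.

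FICZ raised Flt3 in the Jag1 cultures from 654 ± 227 to 3343 ± 639 (SD, n = 3 each), a 5.11-fold difference of means and a log2 fold change of 2.39 (SE 0.254; limma, adjusted p = 0.000203). Within the 3 experiments the rise was 6.62-, 4.46- and 4.90-fold. Without Jag1 the log2 fold change was 0.27 (95% confidence interval -0.42 to 0.96; limma, adjusted p = 0.613), or 0.54 and 0.00072 without TGFβ/IL-34/FICZ replicates 1 and 2. The difference between these effects was 2.12 (SE 0.401; limma, adjusted p = 0.0424), and Flt3 was the 1 receptor gene of 8 that passed it, where 1.39% of all genes passed. That call was also lost with the experiment code as a block (adjusted p = 0.0502), with array weights (0.298) and without the filter on low values (0.0830; limma). It depended on single libraries too: the adjusted p became 0.0727 and 0.0756 without TGFβ/IL-34/Jag1 replicates 1 and 3, 0.115, 0.125 and 0.0797 without TGFβ/IL-34/Jag1/FICZ replicates 1, 2 and 3, 0.0754 without TGFβ/IL-34/FICZ replicate 1, and 0.133 and 0.227 without TGFβ/IL-34 replicates 1 and 2 (limma), with differences of 1.86 to 2.23 in these fits. It was 0.00185 without TGFβ/IL-34/FICZ replicate 2.

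Jag1 without FICZ gave Flt3 a log2 fold change of -0.84 (SE 0.283; limma, adjusted p = 0.124), which did not pass but became 0.0382, at -1.10, when TGFβ/IL-34/Jag1 replicate 2 was left out. Jag1 in the presence of FICZ gave 1.28 (SE 0.283), just short of the threshold (limma, adjusted p = 0.0515), and the adjusted p was 0.0292 in the fit with the replicate block. It was 0.00391 without TGFβ/IL-34/FICZ replicate 2, which leaves 1 library in that group, and 0.183 without replicate 1. Without each of the TGFβ/IL-34/Jag1/FICZ replicates it was 0.109 to 0.179, and with array weights 0.689 (limma). Adding TGFβ and IL-34 to Jag1 cultures lowered Flt3, by a log2 fold change of -2.02 (SE 0.359; limma, adjusted p = 0.00489) against the single Jag1 only sample at 2547.

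With Jag1 and FICZ together, compared with neither, Flt3 rose by 1.55 on the log2 scale (SE 0.283; limma, adjusted p = 0.0161) and Csf1r fell by 2.03 (SE 0.414; limma, adjusted p = 0.0239). These were 2 of the 8 genes, where 4.48% of all genes passed. Both calls were lost without TGFβ/IL-34 replicate 1 (adjusted p = 0.175 for Flt3 and 0.191 for Csf1r; limma), TGFβ/IL-34 replicate 2 (0.108 and 0.163), TGFβ/IL-34/Jag1/FICZ replicate 1 (0.0584 and 0.0901) and TGFβ/IL-34/Jag1/FICZ replicate 2 (0.0742 and 0.0950), at log2 fold changes of 1.40 to 1.59 and -1.77 to -2.05.

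The balance of Flt3 to Csf1r per kb spanned from 3.04% to 211% across the samples. Flt3 was at 5.95%, 7.07% and 3.04% of the Csf1r level in TGFβ/IL-34/Jag1 and at 102%, 172% and 53.0% in TGFβ/IL-34/Jag1/FICZ. It was at 7.98% and 8.29% in TGFβ/IL-34, 27.9% and 22.6% in TGFβ/IL-34/FICZ and 211% in Jag1 only. The Jag1 cultures with and without FICZ did not overlap, and the log2 ratio differed by 4.28 between them. An exact two-sided permutation test gave p = 0.1, the smallest value that 3 against 3 samples allow, and 0.14 after Benjamini-Hochberg adjustment over the 7 ratios compared in this way.

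**Figure D3:**
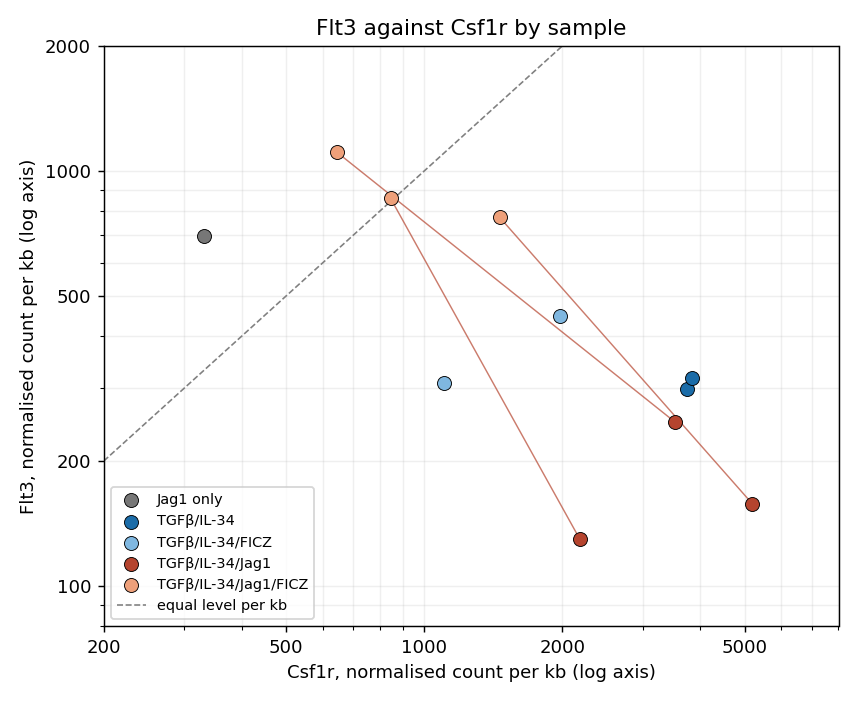
Each point is 1 of the 11 samples, placed by its Csf1r level (x axis) and its Flt3 level (y axis), both in normalised counts per kb on log axes. Solid lines join the Jag1 cultures without and with FICZ of the same experiment, and the dashed line marks equal levels. All 3 solid lines run up and to the left, from ratios of 3.04% to 7.07% to ratios of 53.0% to 172%.

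The β chain genes Csf2rb and Csf2rb2, the most abundant of the 8, are near copies of each other. Csf2rb (chr15:78209952-78238047, plus strand) and Csf2rb2 (chr15:78166707-78189921, minus strand, GRCm39) lie 20030 bases apart. Their coding sequences of 2688 and 2634 bases, without the stop codon, were identical in 95.2% of aligned positions outside gaps, and 18.8% of the 31-base words in Csf2rb transcripts and 28.6% of those in Csf2rb2 transcripts occur in the other gene. Reads that lie wholly in identical stretches cannot be assigned by sequence, so the split between the pair is uncertain. The least alike 120-base windows are shown first because they hold the bases that tell the genes apart, with mismatches in capitals (coding positions 309 to 428 in Csf2rb and 312 to 431 in Csf2rb2, 22 mismatches). The longest stretch shared without a mismatch, 242 bases from coding position 2083 in both genes, follows.
Csf2rb window: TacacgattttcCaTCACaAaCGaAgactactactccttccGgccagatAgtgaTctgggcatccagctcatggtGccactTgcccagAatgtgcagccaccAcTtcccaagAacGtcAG
Csf2rb2 window: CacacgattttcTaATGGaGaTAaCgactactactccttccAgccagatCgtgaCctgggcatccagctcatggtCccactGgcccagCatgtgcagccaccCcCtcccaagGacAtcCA
Shared stretch: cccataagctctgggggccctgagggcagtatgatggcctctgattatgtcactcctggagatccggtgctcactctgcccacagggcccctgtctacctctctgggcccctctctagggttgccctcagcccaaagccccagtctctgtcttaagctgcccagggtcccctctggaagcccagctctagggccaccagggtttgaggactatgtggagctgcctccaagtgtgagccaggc
Across the 11 samples the Csf2rb2 level per kb was 35.8% to 57.8% of that of Csf2rb. In the FICZ effect with Jag1 the log2 ratio differed by 0.03 (exact two-sided permutation test, p = 0.7, adjusted over 7 ratios 0.7).

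Csf2rb, the β chain shared by the receptors for GM-CSF, IL-3 and IL-5, stood at 128429 and 128469 normalised counts in TGFβ/IL-34 and at 74499, 67479 and 71575 in TGFβ/IL-34/Jag1. It stood at 88752, 91808 and 99093 in TGFβ/IL-34/Jag1/FICZ, at 66705 and 129774 in TGFβ/IL-34/FICZ and at 53435 in Jag1 only. The TGFβ/IL-34/Jag1 samples lay below both TGFβ/IL-34 samples and below all 3 TGFβ/IL-34/Jag1/FICZ samples. The log2 fold change of Jag1 without FICZ was -0.85 (SE 0.282) and did not pass (limma, adjusted p = 0.116). It was 0.39 for FICZ with Jag1 (95% confidence interval -0.17 to 0.95; limma, adjusted p = 0.354), although each of the 3 experiments was higher with FICZ, by 1.19- to 1.38-fold.

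Csf2rb2, the β chain used by IL-3 alone in mice, followed the same order in its Jag1 samples. It stood at 55022 and 58920 normalised counts in TGFβ/IL-34, at 35893, 35312 and 41174 in TGFβ/IL-34/Jag1 and at 47535, 48105 and 54129 in TGFβ/IL-34/Jag1/FICZ. The TGFβ/IL-34/FICZ libraries were far apart at 23762 and 55097, and the Jag1 only sample was at 24971. Jag1 without FICZ gave a log2 fold change of -0.61 (limma, adjusted p = 0.336), and FICZ with Jag1 gave 0.42 (limma, adjusted p = 0.363), with values 1.31- to 1.36-fold higher with FICZ within the 3 experiments. Neither passed.

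Csf2ra, the α chain that binds GM-CSF itself, was lowest in the Jag1 only sample. It lies at chr19:61212395-61216892 (GRCm39, minus strand). The normalised counts were 9921 and 10356 in TGFβ/IL-34, 7910, 10844 and 7327 in TGFβ/IL-34/Jag1 and 7237, 7746 and 7417 in TGFβ/IL-34/Jag1/FICZ. They were 3730 and 8775 in TGFβ/IL-34/FICZ and 1945 in Jag1 only. Csf2ra rose with TGFβ and IL-34 in Jag1 cultures, with a 4.47-fold higher mean and a log2 fold change of 2.14 (SE 0.391; limma, adjusted p = 0.00544) against that single sample. FICZ with Jag1 gave -0.20 (95% confidence interval -0.81 to 0.42; limma, adjusted p = 0.704). Per kb, Csf2ra was at 21.7%, 32.9% and 20.9% of Csf2rb in TGFβ/IL-34/Jag1 and at 16.7%, 17.3% and 15.3% in TGFβ/IL-34/Jag1/FICZ, without overlap (exact two-sided permutation test, p = 0.1, adjusted 0.14).

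Il3ra, the α chain that binds IL-3, had its highest value in 1 library. It stood at 3055 and 1057 normalised counts in TGFβ/IL-34/FICZ, at 1008 and 1021 in TGFβ/IL-34 and at 1735 in Jag1 only. It stood at 768, 771 and 541 in TGFβ/IL-34/Jag1 and at 1070, 1093 and 843 in TGFβ/IL-34/Jag1/FICZ. The last pair of groups did not overlap, yet the log2 fold change of 0.54 did not pass (95% confidence interval -0.20 to 1.28; limma, adjusted p = 0.324). Against the Jag1 only sample, TGFβ/IL-34/Jag1 gave -1.34 (limma, adjusted p = 0.0788). The log2 fold change of FICZ without Jag1 was 0.82 (limma, adjusted p = 0.294), and 1.59 with an adjusted p of 0.000928 once TGFβ/IL-34/FICZ replicate 2 was left out (limma), which leaves the library at 3055 as the whole group. Without replicate 1 it was 0.06 (limma, adjusted p = 0.987). The gene lies at chr14:8113752-8123508 (GRCm39, minus strand).

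Kit, the receptor for stem cell factor, ranged within TGFβ/IL-34/Jag1 as widely as over all 11 samples. Its normalised counts were 1902, 945 and 2302 in TGFβ/IL-34/Jag1 and 1725, 2272 and 2112 in TGFβ/IL-34/Jag1/FICZ. They were 1024 and 1313 in TGFβ/IL-34, 1486 and 1759 in TGFβ/IL-34/FICZ and 1366 in Jag1 only. No comparison of Kit passed, and the adjusted p was lowest for Jag1 and FICZ together, at a log2 fold change of 0.80 (95% confidence interval 0.07 to 1.53; limma, adjusted p = 0.229). Kit lies at chr5:75735576-75817404 (GRCm39, plus strand).

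Csf3r, the G-CSF receptor, was the scarcest of the 8, at 26.2 and 30.1 normalised counts in TGFβ/IL-34, 41.7 and 27.4 in TGFβ/IL-34/FICZ and 199 in Jag1 only. It stood at 53.5, 113 and 63.6 in TGFβ/IL-34/Jag1 and at 68.7, 49.1 and 48.2 in TGFβ/IL-34/Jag1/FICZ. These low levels lie above the 2.69 to 3.45 normalised counts that 3 reads are worth in genes with a single transcript, while Csf3r has 19 transcripts. Jag1 without FICZ gave a log2 fold change of 1.34 (SE 0.415; limma, adjusted p = 0.0923), and all 3 Jag1 samples exceeded both TGFβ/IL-34 samples. FICZ with Jag1 gave -0.41 (95% confidence interval -1.23 to 0.42; limma, adjusted p = 0.531). Csf3r (chr4:125918262-125938236, GRCm39, plus strand) shares 13.5% of its 31-base words with the locus annotated as Csf1r-ps, so part of its signal is uncertain.

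Over the 8 genes together, the comparisons without a call were Jag1 without FICZ, FICZ without Jag1, and Jag1 in the presence of FICZ. In limma 0 of 8 passed in each, where 6.6%, 0.0229% and 2.02% of all genes passed. At an unadjusted p under 0.05 they held 3 (Csf2rb, Csf3r, Flt3), 2 (Csf1r, Csf2ra) and 2 (Flt3, Il3ra) of the 8, where 19.0%, 17.4% and 23.2% of all genes did. Without TGFβ/IL-34/FICZ replicate 2, 5 of 8 passed in FICZ without Jag1 (Csf1r, Csf2ra, Csf2rb, Csf2rb2, Il3ra), in Jag1 with FICZ and in the difference between the FICZ effects (Flt3, Csf2ra, Csf2rb, Csf2rb2, Il3ra in both), in fits where 5734, 5827 and 5497 of all genes passed and 1 library stood for the group. Without replicate 1 of that group, 0 of 8 passed in each of the 3. The median log2 fold change of the 8 was -0.41 for Jag1 without FICZ, -0.10 for FICZ without Jag1 and 0.36 for FICZ with Jag1, beside -0.0041, -0.020 and -0.0083 over all genes tested. Groups did not overlap in 5 of the 8 genes when TGFβ/IL-34 was set against TGFβ/IL-34/Jag1 (46.6% of all genes), in 4 between TGFβ/IL-34/FICZ and TGFβ/IL-34 (45.7%), in 7 between TGFβ/IL-34/Jag1/FICZ and TGFβ/IL-34 (54.2%), in 2 between TGFβ/IL-34/Jag1/FICZ and TGFβ/IL-34/FICZ (35.8%), and in 7 between TGFβ/IL-34/Jag1 and the Jag1 only sample (74.6%). Several of these comparisons share their control samples.

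**Figure D4:**
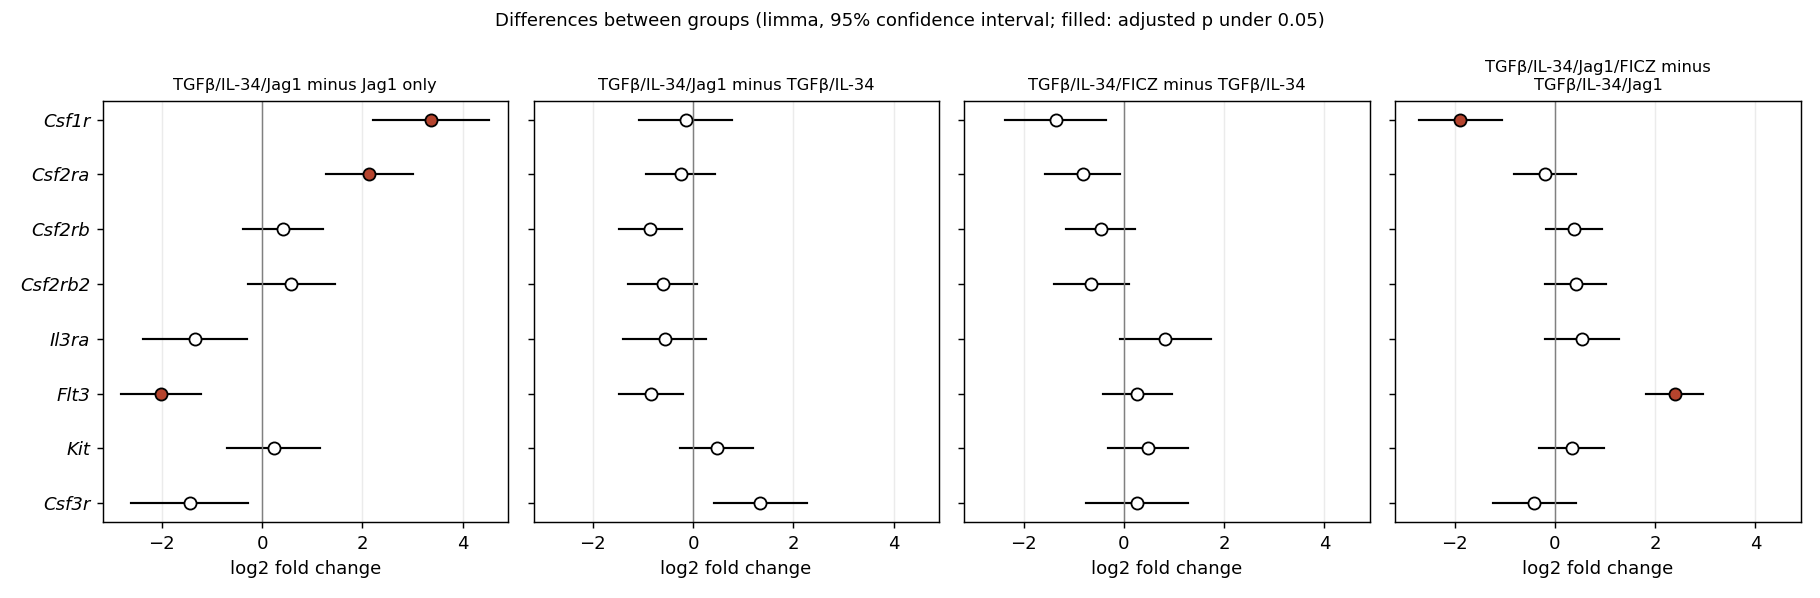
Points give the log2 fold change of each receptor gene (y axis) in 4 comparisons (panels), with the 95% confidence interval from limma as a line, and filled points passed an adjusted p of 0.05. Filled points are Csf1r (3.37), Csf2ra (2.14) and Flt3 (-2.02) in the comparison with the single Jag1 only sample and Csf1r (-1.88) and Flt3 (2.39) in the FICZ effect with Jag1.

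The ligands of these receptors were scarce in the sorted cells, and only Csf1 and Flt3l of 7 passed the filter on low values. Csf1, which encodes M-CSF, stood at 92.0, 142 and 33.9 normalised counts in TGFβ/IL-34/Jag1 and at 323, 334 and 465 in TGFβ/IL-34/Jag1/FICZ, without overlap. Its log2 fold change was 2.26 (SE 0.468; limma, adjusted p = 0.00763), opposite in sign to that of its receptor. It was highest in Jag1 only, at 537, and TGFβ and IL-34 lowered it there by 2.80 on the log2 scale (limma, adjusted p = 0.0172). Flt3l, which encodes FLT3 ligand, gave -0.09 for FICZ with Jag1 (limma, adjusted p = 0.863), with 182 to 447 normalised counts in all 11 samples. Il34, Csf2, Csf3, Kitl and Il3 did not pass the filter, and Il3 was at 0 in every sample. Of 7 related receptors 3 were tested, and Pdgfrb, a kinase of the Csf1r family typical of stromal cells, rose with FICZ in the Jag1 cultures (2.23; limma, adjusted p = 0.00514), from 10.8 to 19.8 up to 47.4 to 85.5 normalised counts. Without Jag1 it stood at 5.76 to 7.58 in TGFβ/IL-34 and at 23.4 to 38.0 in TGFβ/IL-34/FICZ. That log2 fold change of 2.02 did not pass (limma, adjusted p = 0.279). Pdgfrb and Sdc1, a cell surface proteoglycan, fell with TGFβ and IL-34 added to Jag1, by 2.90 and 2.71 on the log2 scale.

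Downstream of the receptors, 4 of 16 signalling genes and 4 of 14 feedback regulators passed for FICZ in the Jag1 cultures. All 16 receptor signalling genes were tested, and 1 rose and 3 fell, against 10.9% of all genes higher and 6.71% lower. Pik3r1, a PI3-kinase subunit, rose by 1.00 on the log2 scale, while Lyn, a Src family kinase, fell by 0.81, Vav1, an exchange factor, by 0.90 and Stat5a by 0.79. Jak2 gave -0.013 and Stat5b -0.13 (limma, adjusted p = 0.978 and 0.716). Of 14 feedback and negative regulators 2 rose and 2 fell. Socs3, an inhibitor of cytokine receptors, fell by 1.81 (limma, adjusted p = 0.000496), from 24878 to 30471 normalised counts down to 6431 to 10600. Socs1, of the same family, rose by 0.89 (limma, adjusted p = 0.00213), Cblb, a ubiquitin ligase, rose by 0.71, and Inpp5d, a lipid phosphatase, fell by 0.87. Jag1 without FICZ moved both Socs genes the other way, with Socs3 at 1.32 and Socs1 at -0.77 (limma, adjusted p = 0.0127 and 0.0190). Lyn was the 1 signalling gene that passed there, at 0.70, where 6.6% of all genes passed. These and the FICZ values share the TGFβ/IL-34/Jag1 samples. With TGFβ and IL-34 added to Jag1, Vav1 rose by 1.62 while Pik3r1, Stat3 and Grb2 fell by 1.79, 1.03 and 0.78. In the same comparison the feedback genes Socs3, Spry2 and Ptpn6 rose by 2.82, 1.86 and 1.25, and Cblb and Dok1 fell by 2.0 and 1.54. The median log2 fold change with FICZ was 0.22 for the signalling genes and 0.10 for the feedback genes.

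Of 12 transcription factors known to act on these receptor genes or their lineages, 11 were tested, with a median of 0.51 for FICZ in the Jag1 cultures. There 5 rose and none fell, where 10.9% of all genes rose and 6.71% fell. Cebpe, a factor of granulocyte maturation, went from 4.54, 6.25 and 9.89 normalised counts to 1079, 1386 and 1248, a log2 fold change of 7.34 (SE 0.336; limma, adjusted p = 1.44e-06). Myb, a progenitor factor, went from 16.6, 27.0 and 10.1 to 1182, 1160 and 972, a change of 5.96 (limma, adjusted p = 3.73e-05). Gata2, a factor of progenitors and mast cells, rose by 3.20, Gfi1, a factor of neutrophil and stem cells, by 4.0 and Runx1 by 1.46. Spi1, which encodes PU.1, a factor required for Csf1r expression, gave -0.49 and Cebpa -0.46 (limma, adjusted p = 0.0956 and 0.298). Without FICZ, Jag1 lowered Cebpe, Myb and Gata2, by 4.31, 3.19 and 2.89 on the log2 scale (limma, adjusted p = 0.000180, 0.00557 and 0.000312). With TGFβ and IL-34 added to Jag1, Cebpa rose by 1.99 and Spi1 by 0.97, while Cebpe, Myb and Gata2 fell by 1.77, 3.01 and 2.26, where 7.51% of all genes rose and 9.34% fell.

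Markers of other cell types moved in the same comparison as Csf1r and Flt3. With FICZ in the Jag1 cultures, where 10.9% of all genes rose and 6.71% fell, 9 of 11 granulocyte genes tested rose. The sum over the 13 listed went from 316 to 415 up to 9392 to 14192 normalised counts, with Ly6g at 0 in every sample of both groups. Of the mast cell and basophil genes 7 of 8 tested rose, and their 13 summed from 185 to 296 up to 4699 to 9956, with Fcer1a at 0 throughout. Of the progenitor and cycling genes 3 of 6 tested rose, Cd34, Mki67 and Top2a, and the 7 listed summed from 1880 to 4319 up to 11209 to 12777. Monocyte and macrophage genes were mixed, with 5 of 9 higher and 1 lower, and summed to 12508 to 29604 without and 20540 to 25500 with FICZ. Of the Langerhans-like genes 5 of 9 fell and none rose, and their sum went from 963220 to 1073922 down to 380017 to 520067. Most of this sum was Cd74, Mfge8 and H2-Aa, with Cd74 at 462235 to 545577 without and 232827 to 287601 with FICZ. Epcam and Cd207 held little of it. Among the dendritic cell genes 1 of 6 tested fell, Siglech, while the 7 listed summed to 26583 to 48071 without and 58226 to 76761 with FICZ. Most of that sum was Ccr7 alone, at 23339 to 44616 without and 53985 to 71743 with FICZ. The stroma genes other than Thy1 summed to 387 to 1035 without and 633 to 4552 with FICZ, and of the 7 stroma genes tested only Thy1 passed. Without Jag1, the granulocyte sum was 541 to 1793 in TGFβ/IL-34 and 3755 to 5429 in TGFβ/IL-34/FICZ. The mast cell and basophil sum was 1261 to 1896 and 5870 to 8243 in these groups. Progenitor and cycling genes summed to 15579 to 17015 and 15262 to 17374 there, above both groups of Jag1 cultures. The part of these cell types in the Csf1r and Flt3 values was not tested. In Jag1 without FICZ, where 2.64% of all genes rose and 3.96% fell, 5 of 7 stroma genes tested rose, while 6 of 9 monocyte and macrophage genes, 5 of 8 mast cell and basophil genes and 4 of 6 progenitor and cycling genes fell. Mertk and Itgam of the monocyte and macrophage list were higher with Jag1, at 439 to 620 and 4862 to 19741. In TGFβ/IL-34 they stood at 81.6 to 114 and 3960 to 4628. The Langerhans-like sum was 716429 to 825338 and the granulocyte sum 541 to 1793 in TGFβ/IL-34, beside the TGFβ/IL-34/Jag1 sums given above. With TGFβ and IL-34 added to Jag1, 7.51% of all genes rose and 9.34% fell. There 5 of 9 Langerhans-like genes rose, their sum being 312235 in Jag1 only, and 4 of 9 monocyte and macrophage genes fell. Members of both lists also went the other way. Langerhans-like Id2 was at 24236 in Jag1 only and at a mean of 10716 in TGFβ/IL-34/Jag1. Adgre1, of the monocyte and macrophage list, was at 3548 and at a mean of 7364. Flt3, Kit and Csf3r are themselves expressed by several of these cell types.

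**Figure D5:**
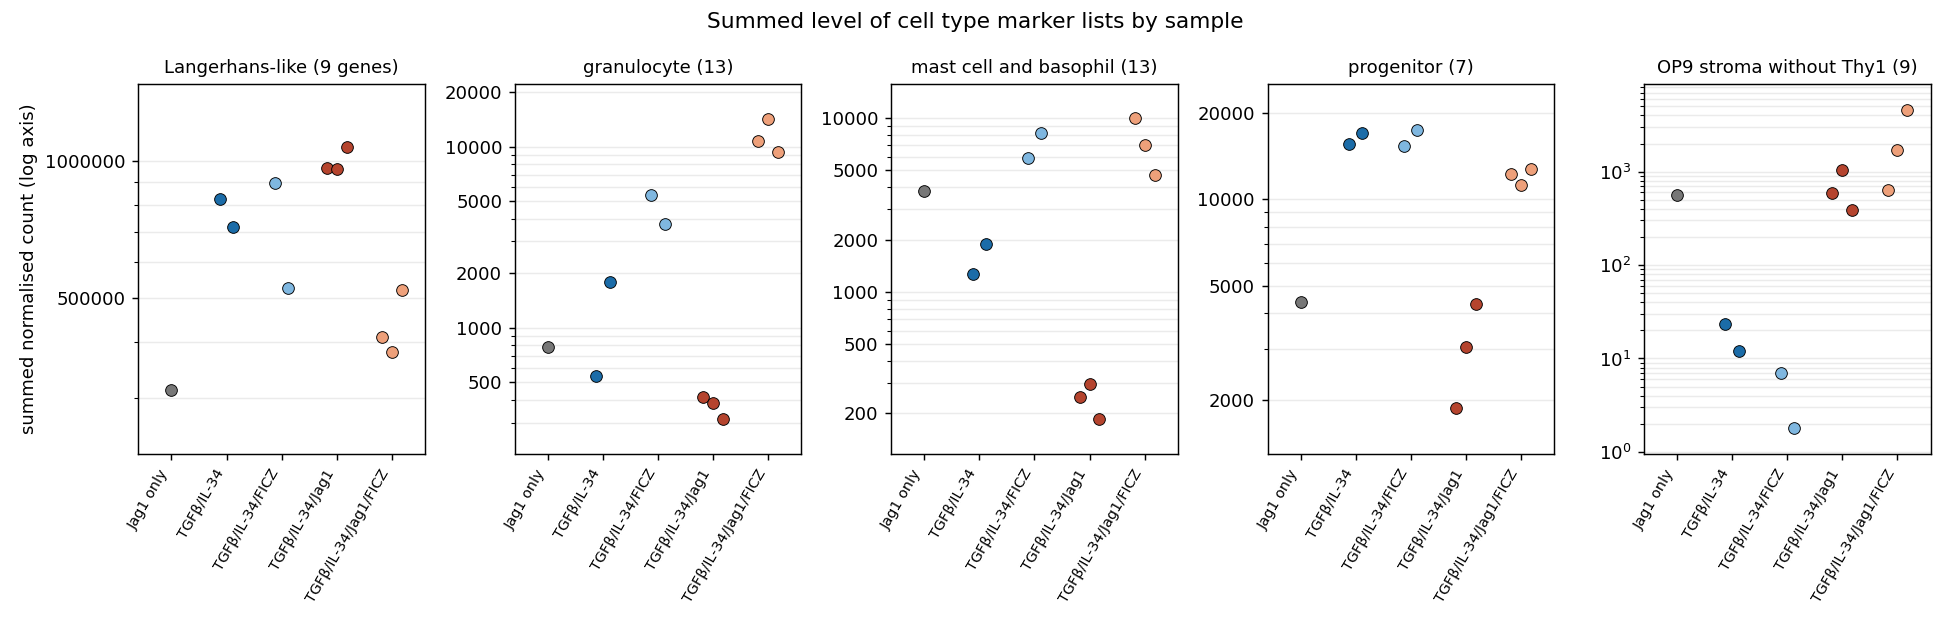
Each panel sums the normalised counts of 1 marker list (y axis, log) for each of the 11 samples by group (x axis). The granulocyte sum is 316 to 415 in TGFβ/IL-34/Jag1 and 9392 to 14192 in TGFβ/IL-34/Jag1/FICZ, and the stroma sum without Thy1 is 1.82 to 23.3 in the 4 samples without Jag1.

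For each receptor gene, the tested genes with the most similar profile over the 11 samples were found by Pearson correlation of log2(value + 1). The samples share 5 culture groups, so high values are common and no test was made. Nearest to Csf1r were Cyb561a3 (r = 0.988), Btla and Rmnd5b, to Csf2ra Srsf6 (0.984), Kat2a and Zfp950, and to Flt3 Scin (0.965), Nid1 and Ripor2. Nearest to Csf2rb were Fgl2 (0.963) and Adgre1, to Csf2rb2 Slk (0.974), Clint1 and Atp2a2, and to Il3ra Psme2 (0.980), Arl3 and Eno3. Csf3r was nearest to Pacc1 (0.956), Maz and Arhgef4. Kit had the weakest match, with Snx4 at 0.788 before Podnl1 and Gm45234.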

How the data were processed

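RNA-seq of 11 samples was analysed from one table of the whole series. According to the study's methods, the authors quantified reads with salmon against the Ensembl GRCm39 transcript model, imported them with tximport and normalised them with DESeq2, and they deposited the normalised signal (counts divided by size factors) that was used here. Tool versions and the strandedness of the libraries are not given in the sources used here. Raw counts were not used here, so no count model was fitted. Groups came from the sample titles, which matched the table's own sample sheet in 11 of 11 samples, while the experiment code differed between the description and that sheet in 1 (TGFβ/IL-34 replicate 1).

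The 13095 of 21860 genes that reached 10 in 2 or more samples were tested on log2(value + 1) with limma 3.58.1 in R 4.3.3 (trend, all 5 groups in one fit, 6 residual degrees of freedom), with Benjamini-Hochberg adjustment over all of them and a threshold of 0.05. Fold changes are on that log2 scale and understate changes of genes with low values. Compared were the effects of FICZ in cultures with and without Jag1, of Jag1 in cultures with and without FICZ, of the pair against neither, the difference between the FICZ effects, and TGFβ and IL-34 with Jag1. Ratios within a sample were compared by exact permutation (Python 3.11.15, scipy 1.17.1). The scripts were tested on simulated data.

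The steps between low values put 1 read at 0.895 to 1.15 normalised counts, but only 52.2% to 57.9% of values over all genes were whole multiples within 0.1 of a step, so reads were not recovered. Genes were annotated with GENCODE vM39 on GRCm39 (21676 of 21860 identifiers matched). Promoter sequence was taken from RefSeq on GRCm38.p6 and coding windows from GENCODE vM39 transcripts. Csf1r overlaps Hmgxb3 on the opposite strand by 2189 bases. Shared sequence was counted as identical 31-base words.

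The 8 genes and the lists of ligands, related receptors, signalling genes, feedback regulators, transcription factors and cell type markers were chosen with earlier results of these data known. All 8 were named with their values. Named too were genes of the pathway lists that passed for FICZ with Jag1, Jag1 without FICZ, and TGFβ and IL-34, and the 3 tested genes of most similar profile, of which 1 is not reported here. Genes of the marker lists were given mostly as counts and sums. Jag1 cultures with and without FICZ of the same replicate number carry the same experiment code, and their deviations from the group means correlated at 0.153, 0.122 and 0.166. Fold differences within experiments are therefore given. The limma fits reported and the permutation tests were unpaired, and pairing entered the fits only as a block among the alternatives. Numbers in TGFβ/IL-34 do not follow these codes. Alternatives were another normalisation, pseudocount, filter, weights, blocks, fits of the compared groups alone, and leaving out each replicate.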

Additional observations from a re-analysis of the deposited data

Results flagged for a closer look

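The FICZ effect on Flt3 differed between cultures with and without Jag1. FICZ gave a log2 fold change of 2.39 with Jag1 (3 against 3 samples) and 0.27 without (2 against 2), and the difference was 2.12 (SE 0.401; limma, adjusted p = 0.0424), with all 3 Jag1 cultures higher with FICZ. The adjusted p ranged from 0.00185 to 0.298 over 21 alternatives. It missed the threshold in 11 of them, while the difference stayed between 1.86 and 2.40. The comparison without Jag1 was partly one between experiments.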

How the results depend on the processing

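The fall of Csf1r and the rise of Flt3 with FICZ in the Jag1 cultures passed under all 17 alternatives (log2 -2.21 to -1.58 and 2.19 to 2.66), and Csf1r, Csf2ra and Flt3 passed under all 14 for TGFβ and IL-34. The number of the 8 genes past the threshold moved as follows. Array weights gave 4 for Jag1 without FICZ (0 in the fit reported), 6 for both together (2), 5 for FICZ with Jag1 (2), 0 for the difference of FICZ effects (1) and 5 for TGFβ and IL-34 (3), with 2627, 3558, 4123, 8 and 4318 genes in all. Fits of the compared groups alone gave 2 for Jag1 without FICZ, 5 for both together, 3 for FICZ with Jag1 and 4 for TGFβ and IL-34 (1303, 3053, 3614 and 2148 genes). The flow cell block gave 4 for TGFβ and IL-34 (2484 genes). Quantile normalisation gave 1 for Jag1 with and without FICZ (0). With no filter, both together gave 1 and the difference 0 (74 genes in place of 182). For Jag1 with FICZ (0), pseudocount 4, the replicate block and the experiment code block gave 1 each, Flt3 being the gene. The experiment code block gave 0 for the difference (44 genes). The experiment code of the authors' sample sheet, a block chosen after seeing the data, gave 1 for Jag1 with and without FICZ. The pairing moved no other count of the 8 genes.

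Leaving out single libraries gave 0 to 1 for Jag1 without FICZ, 0 to 5 for FICZ without Jag1, Jag1 with FICZ and the difference, and 0 to 2 for both together. The values that changed sign had not passed, and the cause was not tested. They were, for Jag1 without FICZ, Csf1r (experiment code 0.093, single libraries -0.45 to 0.17). For FICZ without Jag1 they were Csf3r (flow cell block -0.0074, single libraries -0.036 to 0.55), Flt3 (sample sheet code -0.012) and Csf2rb (single libraries -0.95 to 0.015). For both together they were Il3ra (replicate block 0.12, sample sheet code 0.035, single libraries -0.095 to 0.092) and Csf2rb2 (flow cell 0.00063). For FICZ with Jag1 it was Kit (single libraries -0.049 to 0.59). For Jag1 with FICZ they were Csf2rb (array weights -0.0049, replicate block -0.024, experiment code -0.030, flow cell -0.077, sample sheet code -0.0048), and with single libraries left out Csf2rb (-0.48 to 0.48), Csf2ra (-0.23 to 1.00) and Csf2rb2 (-0.14 to 1.07). For the difference they were Kit (array weights 0.070, single libraries -0.53 to 0.11) and Il3ra (experiment code 0.037, single libraries -1.05 to 0.48). For TGFβ and IL-34 it was Kit (single libraries -0.028 to 0.61). Depth limits Csf3r most, at 26.2 normalised counts in its lowest sample.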
